A study of Mus musculus with 2 samples.

Results

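The genes described here are 10 members of the AMH, inhibin and activin system, chosen by their symbols from the 32285 genes counted in the testis libraries. They are *Amh*, *Amhr2*, *Inha*, *Inhba*, *Inhbb*, *Fst*, *Acvr1b*, *Acvr2a*, *Acvr2b* and *Bmpr1a*, and all 10 had UMIs in both libraries. The data are single-cell RNA-seq of dissociated testes at PD7 (postnatal day 7), with 1 library from a control mouse and 1 from a *Brca1* vKO mouse. *Brca1* vKO stands for *Brca1* f/- *Vasa-Cre*: *Vasa-Cre* is a germ cell driver active from the fetal gonocyte stage on, so germ cells lose the floxed allele, while every somatic cell of that mouse keeps the floxed allele and carries the deleted one, and its library is also called the mutant library here. The labels give the other animal as control with no allele named, the methods speak of littermates, and more cells were loaded from the *Brca1* vKO testes. With 1 mouse per genotype no test between genotypes was made, and every interval given here is a 95% interval that covers counting error only and leaves out the spread between mice.

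AMH, activins and inhibins are ligands of the TGF-beta family that signal through pairs of type I and type II receptor kinases. AMH, secreted by immature Sertoli cells, makes the Müllerian ducts regress in the male fetus. Activins are dimers of beta subunits and drive FSH release and growth of the young testis, whereas inhibins pair the alpha subunit with a beta subunit and oppose activin, and follistatin binds activin and keeps it from its receptors. Sertoli cells still divide in the first postnatal weeks and later stop, mature and lose AMH. The design therefore allows 3 questions: which cells of the PD7 testis carry each transcript, whether dividing Sertoli cells differ from the others, and what the Sertoli transcripts are in a testis that holds few germ cells.

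After filtering, 5077 control and 8712 *Brca1* vKO cells remained, with medians of 16917 and 12970.5 UMIs per cell and 16 barcodes present in both libraries. Cells were clustered without the members among the clustering genes and named from marker genes other than the members. The Sertoli-like cells, which carried *Clu* and *Rhox8*, numbered 2006 in the control and 4090 in the mutant library. The stromal-like cells numbered 924 and 2172, the myoid-like cells 554 and 1421 and the Leydig-like cells 46 and 113. The germ-like cells were 652 (12.8%) in the control and 216 (2.48%) in the mutant library. The germ-like count depends on a shallow cluster led by haemoglobin and germ cell genes (430 and 61 cells): at resolution 0.1 the germ-like class held 1083 and 277 cells. In each class all of its own markers were detected. A cluster led by mitotic genes (518 control and 1195 *Brca1* vKO cells) was placed in the Sertoli-like class by its marker levels, and a cluster with cell cycle genes among its leading genes (184 and 407 cells) in the stromal-like class. *Brca1* itself had 72.9 counts per 1000000 UMIs (CPM) in control and 45.4 CPM in *Brca1* vKO germ-like cells, and 29.8 and 25.8 CPM in Sertoli-like cells. The counts do not separate the deleted allele from an intact one. UMIs were summed per library and class and given as CPM. Since they count transcripts near one end and the tables give no transcript lengths, levels are compared between cells for 1 gene and not between genes.

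The promoter windows of 3 members are shown first, because these genes carry the main pattern by cell class: *Amhr2*, the receptor specific to AMH, and *Inhbb*, the subunit beta B, were highest in Sertoli-like cells, whereas *Inhba*, the subunit beta A, was highest in stromal-like cells. Each is the 250 bases before the start in RefSeq, build GRCm38.p6, printed 5′ to 3′ on the strand of the gene. The *Amhr2* window lies at chr15:102445117-102445366 on the plus strand, the *Inhba* window at chr13:16011601-16011850 on the plus strand and the *Inhbb* window at chr1:119422249-119422498 on the minus strand. Capitals mark AAGGTCA, the half-site of NR5A1, a nuclear receptor of Sertoli and Leydig cells.
Amhr2: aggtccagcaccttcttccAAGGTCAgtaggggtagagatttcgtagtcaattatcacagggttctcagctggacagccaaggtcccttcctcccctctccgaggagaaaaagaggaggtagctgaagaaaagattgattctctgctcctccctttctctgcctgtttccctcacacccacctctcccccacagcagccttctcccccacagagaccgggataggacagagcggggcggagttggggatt
Inhba: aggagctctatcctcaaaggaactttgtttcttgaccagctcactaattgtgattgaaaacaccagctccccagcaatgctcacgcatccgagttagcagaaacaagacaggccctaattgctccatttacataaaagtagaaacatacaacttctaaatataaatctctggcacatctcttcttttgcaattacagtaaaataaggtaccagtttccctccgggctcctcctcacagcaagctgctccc
Inhbb: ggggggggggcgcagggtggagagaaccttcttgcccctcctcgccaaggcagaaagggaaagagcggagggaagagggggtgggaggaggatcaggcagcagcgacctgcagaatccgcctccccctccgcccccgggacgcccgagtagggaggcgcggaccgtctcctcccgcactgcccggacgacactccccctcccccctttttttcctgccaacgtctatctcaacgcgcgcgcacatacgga
RefSeq windows were matched for 8 of the 10 members, without *Amh* and *Fst*, and for 4 of them RefSeq and the gene annotation gave the same start. AAGGTCA was found 1 time in the *Amhr2* window, 231 to 225 bases before the start on the plus strand, and on neither strand in the *Inhba* and *Inhbb* windows. It occurs in 4.08% of the 32851 promoter windows of the same length. Searched on both strands, the letters AGATAA, bound by GATA factors and present in 9.99% of all windows, were in none of the 3 shown. The same held for AACAAT, bound by SOX factors (9.42% of windows). It also held for TGACGT, found within cAMP response elements (6.47% of windows). These matches describe letters in the windows and no binding was measured.

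Among the 5 classes, *Amh* and its own receptor *Amhr2* were highest in Sertoli-like cells. *Amh* (ENSMUSG00000035262, chromosome 10, 80805243 to 80807648 in mm10) encodes the anti-Müllerian hormone, and *Amhr2* (ENSMUSG00000023047, chromosome 15, 102445367 to 102454633) its type II receptor. *Amh* stood at 331 CPM (326 to 336) in control and 301 CPM (298 to 304) in *Brca1* vKO Sertoli-like cells. Stromal-like cells had 42.1 and 44.6 CPM of *Amh*, Leydig-like cells 23.6 and 11.02, germ-like cells 14.1 and 13.3 and myoid-like cells 4.8 and 9.51. The Sertoli level was thus 7.86 times that of the stromal-like class in the control and 6.75 times in the mutant library. These folds depend on doublets. Without the cells that the doublet caller Scrublet marked, *Amh* was at 331 and 301 CPM in Sertoli-like cells. It was then at 14.1 and 10.1 CPM in Leydig-like and 6.44 and 9.15 CPM in stromal-like cells. Leydig-like cells thus lay above stromal-like cells, though by little in the mutant library, and germ-like cells are not part of this order. The *Amh* intervals of Leydig-like and germ-like cells overlapped in both libraries, and those of Leydig-like and myoid-like cells in the mutant library. Of all *Amh* UMIs in retained cells, 89.3% (88.9 to 89.7) in the control and 92.4% in the mutant library lay in Sertoli-like cells. Sertoli-like cells made up 39.5% and 46.9% of the cells and held 44.9% and 61.1% of the UMIs of all genes. *Amhr2* was at 315 CPM (310 to 320) in control and 270 CPM (267 to 274) in *Brca1* vKO Sertoli-like cells. Its next class differed between the libraries, with 65.4 CPM in control Leydig-like cells and 43.5 CPM in *Brca1* vKO stromal-like cells. Without the marked cells, Leydig-like cells had 61.2 and 29.5 CPM of *Amhr2* and stromal-like cells 7.62 and 11.2 CPM.

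The inhibin subunits split between classes. *Inha* (ENSMUSG00000032968, chromosome 1, 75507077 to 75510366), which encodes the alpha subunit that makes a dimer an inhibin, was at 1031 CPM (1022 to 1040) in control and 1115 CPM (1109 to 1122) in *Brca1* vKO Sertoli-like cells. Leydig-like cells followed with 309 and 311 CPM, and stromal-like cells with 132 and 169 CPM. *Inhbb* (ENSMUSG00000037035, chromosome 1, 119415465 to 119422248) was at 194 CPM (191 to 198) and 204 CPM (202 to 207) in Sertoli-like cells, against 34.3 and 42.2 CPM in stromal-like cells. *Inhba* (ENSMUSG00000041324, chromosome 13, 16011851 to 16031621) went the other way. It was at 327 CPM (318 to 335) and 290 CPM (284 to 296) in stromal-like cells. In Sertoli-like cells, its lowest class with all cells kept, it was at 1.67 and 1.97 CPM. Between these lay Leydig-like cells with 55.4 and 64.5 CPM of *Inhba*, myoid-like cells with 37.6 and 42.1, and germ-like cells with 3.91 and 5.13. Without the cells marked as doublets, germ-like cells were the lowest class, with 0.986 and 0.539 CPM. Sertoli-like cells then had 1.68 and 1.97 CPM of *Inhba*. Stromal-like cells held 90.5% of the *Inhba* UMIs in the control and 89.0% in the mutant library, while Sertoli-like cells held 1.42% and 1.91%. The genes for the activin beta subunits therefore had different highest classes in both libraries, although stromal-like and Leydig-like cells had UMIs of both.

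**Figure D1:**
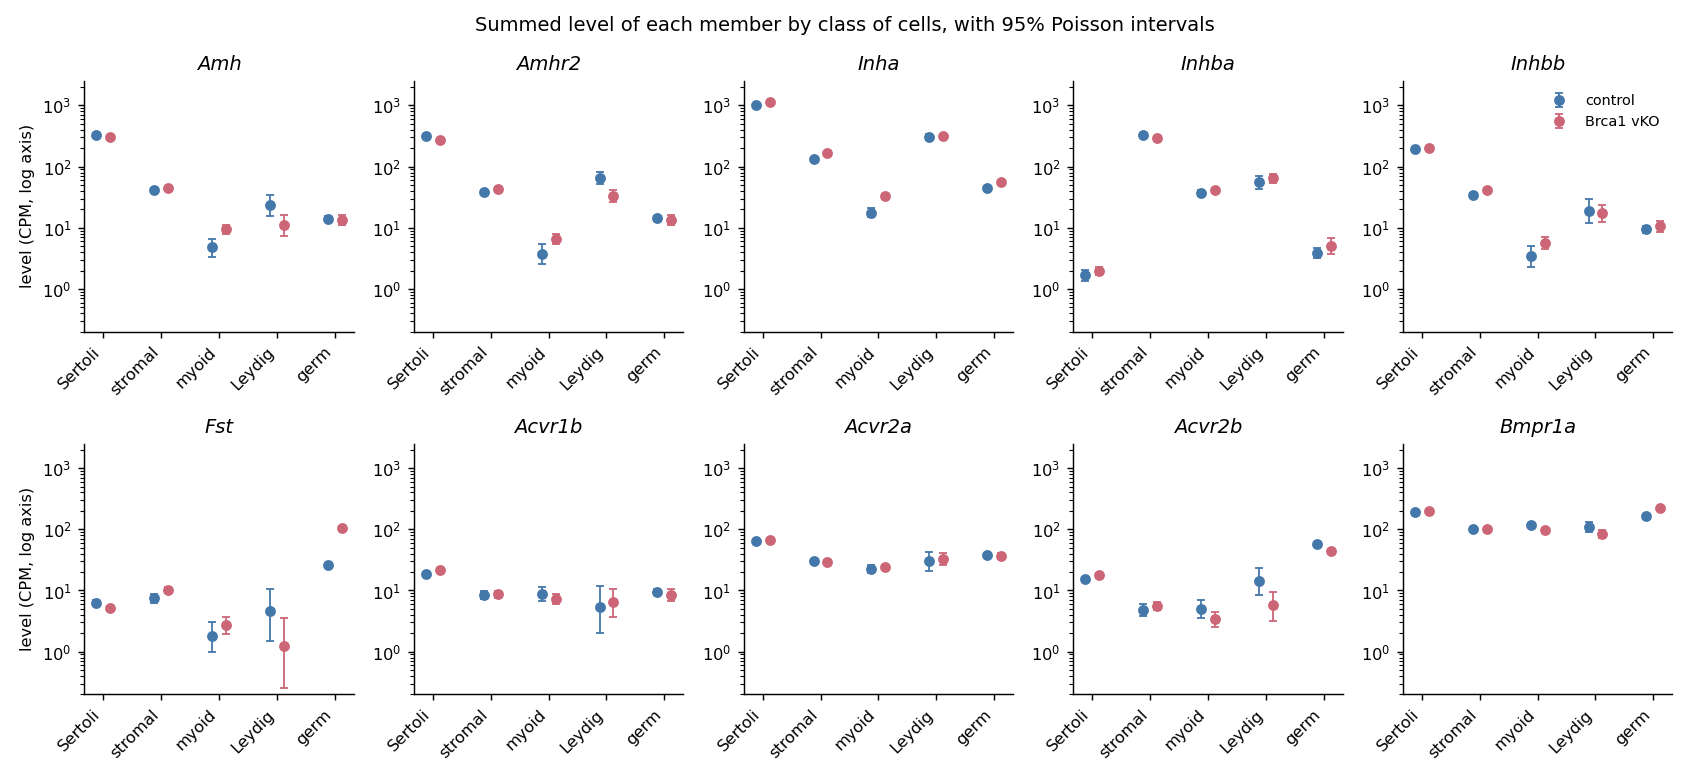
Level of each of the 10 genes (y axis, CPM on a log axis) in the summed UMIs of 5 classes of cells (x axis), with 95% Poisson intervals; blue is the control and red the Brca1 vKO library, 1 mouse each. Amh, Amhr2, Inha and Inhbb are highest in Sertoli-like cells, Inhba in stromal-like cells (327 and 290 CPM) and Fst in germ-like cells (26.5 and 107 CPM).

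*Fst* (ENSMUSG00000021765, chromosome 13, 114452290 to 114458951), the gene for follistatin, was highest in germ-like cells, at 26.5 CPM (24.8 to 28.4) in the control and 107 CPM (99.9 to 114) in the mutant library. Stromal-like cells had 7.49 and 10.2 CPM and Sertoli-like cells 6.34 and 5.08 CPM. In the control library the stromal and Sertoli intervals of *Fst* overlapped. Germ-like cells held 62.4% of the *Fst* UMIs of the control library and 51.0% of those of the mutant library. They made up 12.8% and 2.48% of the cells and held 27.3% and 5.38% of the UMIs of all genes.

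The activin and BMP receptors were found in all 5 classes. *Acvr1b* (ENSMUSG00000000532, chromosome 15, 101174067 to 101213684), the type I activin receptor ALK4, was highest in Sertoli-like cells, at 18.3 CPM (17.1 to 19.5) and 21.6 CPM (20.7 to 22.5), and the other classes lay between 5.45 and 9.49 CPM with overlapping neighbours. *Acvr2a* (ENSMUSG00000052155, chromosome 2, 48814109 to 48903269), a type II activin receptor, was also highest there, at 65.0 and 67.4 CPM, followed by germ-like cells at 37.9 and 36.8 CPM. *Acvr2b* (ENSMUSG00000061393, chromosome 9, 119402118 to 119434995), the other type II activin receptor, was highest in germ-like cells, at 56.9 CPM (54.3 to 59.5) and 43.6 CPM (39.4 to 48.2). Its Sertoli level was 15.4 and 17.9 CPM. Germ-like cells held 63.3% of the *Acvr2b* UMIs of the control library and 15.5% of those of the mutant library. *Bmpr1a* (ENSMUSG00000021796, chromosome 14, 34410734 to 34503341), the type I receptor ALK3 that AMH shares with BMPs, was the most even member, with at least 83.7 CPM in every class. It was at 191 and 197 CPM in Sertoli-like cells and 168 and 223 CPM in germ-like cells. Sertoli-like cells were its highest class in the control and germ-like cells in the mutant library. The germ-like cells of the libraries differed in kind, as described below, and the part of this in the order was not tested.

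Single cells gave the same picture when each cell was thinned to 5000 UMIs, which left out 37 control and 31 *Brca1* vKO Sertoli-like cells as too shallow. A UMI of *Inha* was then found in 98.2% of control and 98.9% of *Brca1* vKO Sertoli-like cells, of *Amh* in 74.3% and 72.0%, of *Amhr2* in 77.9% and 71.9%, and of *Inhbb* in 57.0% and 58.4%. Germ-like cells serve as the background for these genes. There *Amh* had a UMI in 4.15% and 7.04% of cells and *Amhr2* in 5.22% and 5.16%. *Inha* had a UMI in 10.9% and 11.7% and *Inhbb* in 3.69% and 3.29%. This background includes doublets, since Scrublet marked 9.51% of control and 12.037% of *Brca1* vKO germ-like cells. All germ-like cells held 454 and 117 UMIs of *Amh* and 1459 and 484 of *Inha*. Without the marked cells they held 166 and 50 UMIs of *Amh* and 584 and 208 of *Inha*. The thinned shares were not recomputed without the marked cells. Median depths before thinning were 18617 and 15602 UMIs in Sertoli-like and 46363.5 and 37571.5 UMIs in germ-like cells, where the unthinned *Inha* share was 40.6% and 58.3%, against 99.6% and 99.8% in Sertoli-like cells. *Inhba* had a UMI in 69.6% and 67.5% of thinned stromal-like cells and in 0.813% and 0.985% of thinned Sertoli-like cells. *Amh* and *Inha* were detected together in 73.2% of thinned control and 71.2% of thinned *Brca1* vKO Sertoli-like cells, and *Amh* alone in 1.12% and 0.739%. Over these 1969 and 4059 cells, the rank correlation of *Amh* with *Inha* was 0.23 and 0.22, and that of *Amh* with *Inhbb* was 0.02 and 0.00, given as a description, since the cells of a column share 1 library.

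The UMIs of *Amh*, *Amhr2*, *Inha* and *Inhbb* outside Sertoli-like cells were set beside those of Sertoli markers in the same sums, each as a percentage of its own Sertoli level. Of 11 Sertoli markers the median level in stromal-like cells was 12.9% of the Sertoli level in the control (range 11.3 to 19.3) and 15.5% in the mutant library (14.7 to 22.4). In the same cells *Amh* stood at 12.7% and 14.8%, *Amhr2* at 12.1% and 16.1%, *Inha* at 12.8% and 15.1% and *Inhbb* at 17.6% and 20.6% of their Sertoli levels, all within the range of the markers. Scrublet marked 7.58% of control and 8.15% of *Brca1* vKO stromal-like cells, but 0.15% and 0.0978% of Sertoli-like cells. Without the marked cells, the stromal level of *Amh* was 1.95% and 3.04% of the Sertoli level and that of *Inha* 2.41% and 4.02%, beside 1.91% and 3.53% for *Clu* and 2.22% and 3.81% for *Rhox8*. *Inhbb* kept 7.66% and 11.6%, which is 14.9 and 23.7 CPM. The other 9 markers were not recomputed without the marked cells, and with all cells *Sox9*, at 19.3% and 22.4%, lay above *Inhbb*. *Inhba* in stromal-like cells was 374 and 330 CPM without the marked cells.

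In Leydig-like cells *Inha* lay above most of the markers. Their *Inha* level was 29.96% of the Sertoli level in the control and 27.9% in the mutant library, where the median of the markers was 11.1% (range 6.23 to 40.6) and 6.21% (3.93 to 26.2). *Clu* gave the top of these ranges, so *Inha* was above 10 of the 11 markers in the control and above all 11 in the mutant library. Without marked doublets *Inha* was still at 295 and 305 CPM in Leydig-like cells. In the 28 control and 57 *Brca1* vKO Leydig-like cells with at most 1 UMI of *Rhox8*, *Cst9*, *Defb36* and *Hsd17b1* together, a limit set after the values were seen, *Inha* was at 139 and 161 CPM. *Clu*, which the limit did not use, was at 755 and 489 CPM there. *Amhr2* in these cells was at 55.1 and 16.0 CPM, and *Amh* had 0 UMIs in the control, which allows up to 6.35 CPM, and 9 UMIs in the mutant library.

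**Figure D2:**
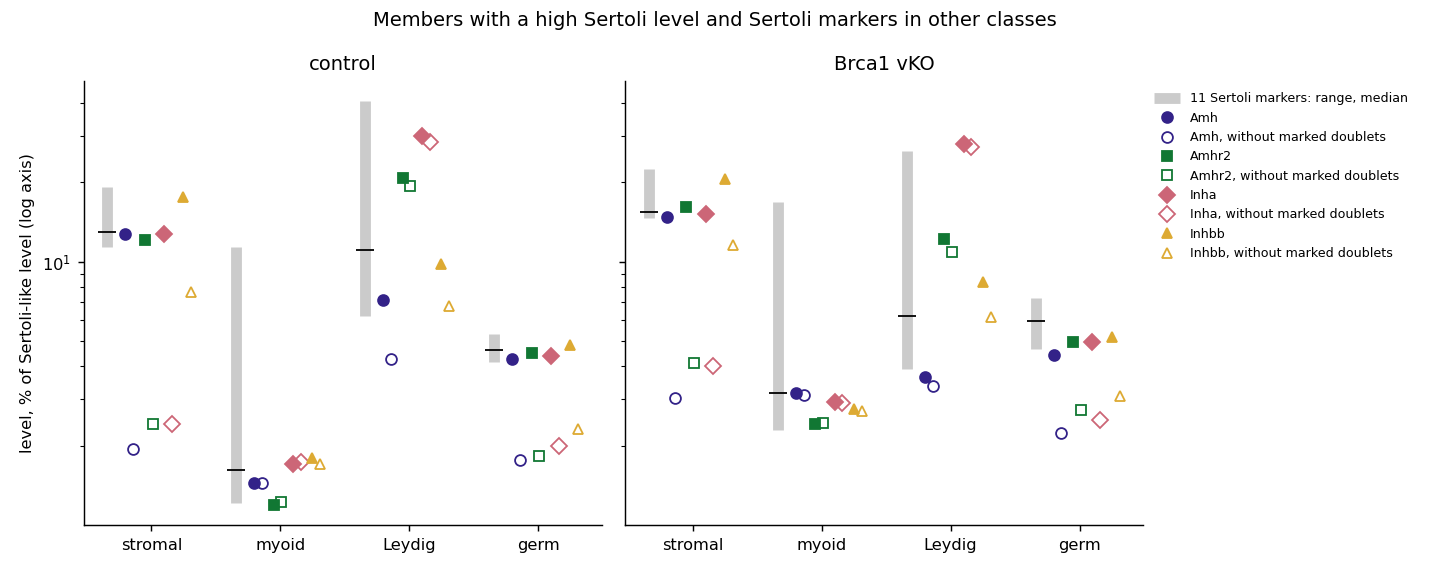
Level of 4 members in other classes as a percentage of their Sertoli-like level (y axis, log axis), for the control (left) and the Brca1 vKO library (right); filled symbols are all cells, open symbols leave out cells marked as doublets, and grey bars give the range and black ticks the median of 11 Sertoli markers over all cells. In stromal-like cells the open Amh symbols stand at 1.95% and 3.04%, while Inha in Leydig-like cells stays at 28.6% and 27.4%.

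Between the libraries, the Sertoli levels of the members differed little. None of the 10 members was past 1.5-fold in Sertoli-like cells (0 of 10), where 1.75% of the 15376 genes tested were. *Amh* was 0.910 times its control level in the mutant library (0.893 to 0.927), and *Amhr2* was 0.859 times (0.843 to 0.876). *Inha* was 1.08 times its control level (1.07 to 1.09) and *Inhbb* 1.05 times (1.03 to 1.08). The hormone and its receptor were thus slightly lower and the inhibin subunits slightly higher, by amounts above counting error whose size against the spread between mice cannot be told. The activin receptors were at 1.18 (1.09 to 1.28) for *Acvr1b*, 1.04 (0.995 to 1.08) for *Acvr2a* and 1.16 (1.07 to 1.26) for *Acvr2b*, and *Bmpr1a* at 1.03 (1.01 to 1.06). The low transcripts *Fst* and *Inhba* were at 0.801 (0.696 to 0.922) and 1.17 (0.909 to 1.53). The median log2 difference of the members was 0.06, beside 0.00 over all genes tested. Every bound of the 10 intervals but the upper one of *Inhba* lay within 1.5-fold of the control. In the *Brca1* vKO library 5.13% of the UMIs of Sertoli-like cells, against 2.53% in the control, were estimated as free RNA. The estimate divided the level of germ and red blood cell markers, which these cells should lack, by that in all retained cells. In Sertoli-like cells the summed germ markers were at 31.7 CPM in the control and 14.4 CPM in the mutant library. Those of red blood cells were at 467 and 202 CPM. The higher mutant estimate was thus not a higher level of these markers in Sertoli-like cells. With the estimated shares subtracted, the ratio of *Amh* was 0.915 and 0 of 10 members were past 1.5-fold.

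As a share of their UMIs, dividing Sertoli-like cells had less *Amh*, *Amhr2* and *Inha* than the others in both libraries. Cells with at least 2 UMIs of *Mki67* and *Top2a*, genes of proliferating cells, were called cycling, and they were 31.5% of the control and 33.8% of the *Brca1* vKO Sertoli-like cells. Counted in cells thinned to 5000 UMIs, where 1 UMI was enough, they were 29.8% (27.8 to 31.9) and 32.9%. *Amh* was at 284 CPM in cycling and 372 CPM in other control cells, a ratio of 0.764 (0.741 to 0.788). In the *Brca1* vKO library it was at 265 and 340 CPM, a ratio of 0.779 (0.761 to 0.797). *Inha* gave 0.785 (0.772 to 0.799) and 0.827 (0.817 to 0.837), and *Amhr2* 0.809 (0.785 to 0.835) and 0.838 (0.818 to 0.858). Dividing cells held more UMIs in all, and in UMIs per cell the order was the other way: *Amh* had 7013 UMIs over 632 cycling and 10563 over 1374 other control cells, and 13842 over 1383 and 16150 over 2707 *Brca1* vKO cells. As a share of all UMIs these 3 genes were lower in dividing cells of each library, and no member was past 1.5-fold the same way in both (0 of 10, where 5.0% of 13313 genes were).

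*Inhbb* did not follow *Inha* in this split. It was at 201 CPM in cycling and 189 CPM in other control cells, a ratio of 1.07 (1.02 to 1.11), and the *Brca1* vKO ratio was 1.09 (1.06 to 1.12). The receptors *Acvr2a* (1.15 and 1.07), *Acvr2b* (1.12 and 1.27), *Acvr1b* (1.09 and 1.11) and *Bmpr1a* (1.16 and 1.11) were also above 1 in both libraries, and *Fst* was at 1.20 and 1.39. The members therefore fell on both sides of 1, with the hormone, its receptor and the alpha subunit on the lower side.

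Graded by the UMIs of *Mki67* and *Top2a*, the level of *Inha* was 1169 CPM in the 1117 control cells with none and 1062, 1012, 905 and 869 CPM in those with 1, 2 to 4, 5 to 9 and 10 or more. The *Brca1* vKO levels of *Inha* were 1243, 1178, 1128, 1140 and 977 CPM. *Amh* was at 378, 349, 312, 234 and 283 CPM in the control and 351, 309, 288, 317 and 255 CPM in the mutant library. Both genes were highest in the cells with no such UMI, while the order of the middle groups of *Amh* differed between the libraries. Cells with more of these UMIs were also deeper, with a median of 32517 UMIs in the control group with 10 or more against 16719 in the group with none. In cells thinned to 5000 UMIs the mean was 1.46 *Amh* UMIs per cycling and 1.97 per other control cell, and 1.38 and 1.77 in the mutant library. No *Amh* UMI was found in 30.7% of thinned cycling and 23.4% of other control cells, against 31.4% and 26.3% in the mutant library.

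**Figure D3:**
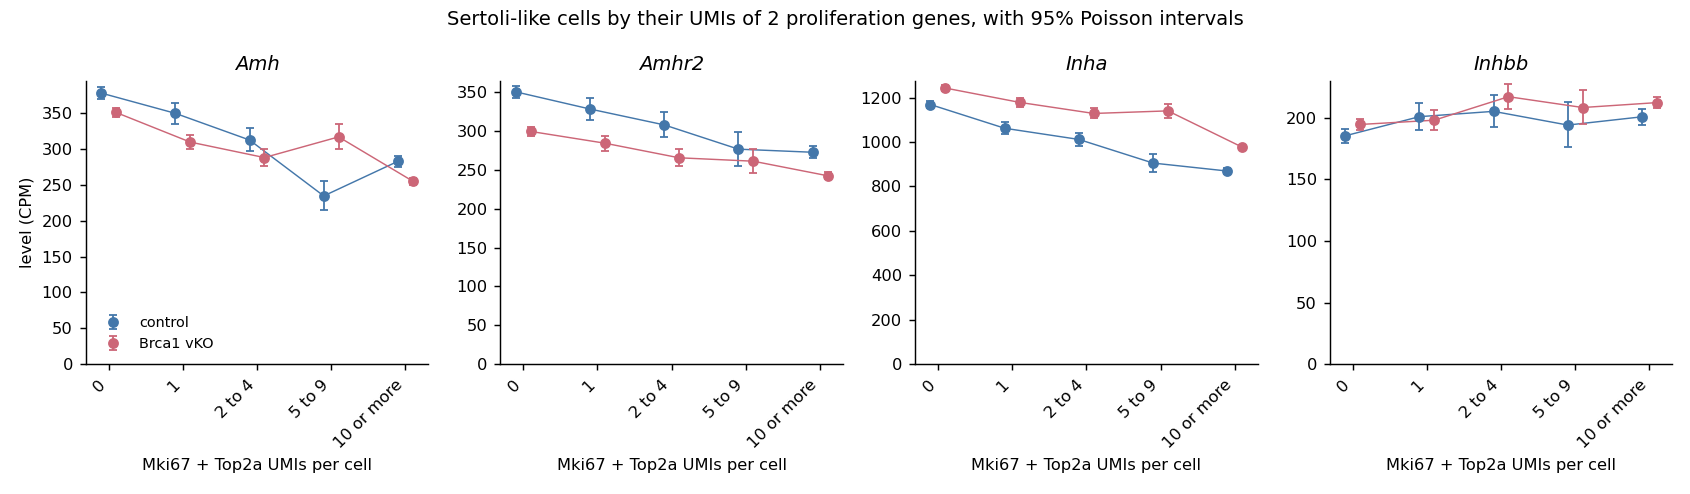
Level of Amh, Amhr2, Inha and Inhbb (y axis, CPM, from 0) in Sertoli-like cells grouped by their UMIs of Mki67 and Top2a together (x axis), with 95% Poisson intervals; blue is the control and red the Brca1 vKO library. Inha goes from 1169 to 869 CPM in the control and from 1243 to 977 CPM in the Brca1 vKO library, while Inhbb goes from 185 to 201 and from 194 to 212 CPM.

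A list of 19 genes of Sertoli maturation and lineage was set beside the members. Of the 18 tested between the libraries in Sertoli-like cells, 1 was past 1.5-fold, where 1.75% of all genes were. This was *Rhox5*, a homeobox gene of later Sertoli cells, with 94 UMIs (1.77 CPM) in the control and 337 UMIs (3.38 CPM) in the mutant library. *Fshr*, the FSH receptor, was at 328 and 330 CPM, the gap junction gene *Gja1* at 455 and 549 CPM, *Krt18*, a keratin of immature Sertoli cells, at 17.4 and 14.5 CPM, and the lineage factor *Sox9* at 380 and 327 CPM. The median log2 difference of the 18 genes was 0.00. In the split by division, *Ncam1*, an adhesion molecule of immature Sertoli cells, was the maturation gene past 1.5-fold in both libraries, 1 of the 18 tested, where 5.0% of all genes were. It was higher in cycling cells by 2.0 and 2.1 times, at 5.10 and 5.55 CPM over all Sertoli-like cells.

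Stromal-like cells had 0 of 10 members past 1.5-fold, where 2.03% of all genes were. Without marked doublets 2 members were past it, *Inha* and *Inhbb*, both higher in the mutant library, and after thinning 1 was, *Fst*, also higher. *Inhba*, which was highest in this class, was 0.887 times its control level there (0.858 to 0.917). *Inha*, *Inhbb* and *Fst* were at 1.28, 1.23 and 1.36 times. In stromal-like cells that were not cycling, *Amh* (1.59), *Inha* (1.82) and *Inhbb* (1.61) were past 1.5-fold, 3 of 10 members, where 3.86% of genes were. The summed Sertoli markers of all stromal-like cells moved the same way, from 1724 CPM in the control to 2117 CPM in the mutant library, and their part in this was not tested.

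*Inhba* was lower in dividing stromal-like cells, as *Amh* was in dividing Sertoli-like cells, but by more. It was at 197 CPM in cycling and 384 CPM in other control cells, a ratio of 0.513 (0.479 to 0.548), and at 171 and 327 CPM in the mutant library, a ratio of 0.524 (0.493 to 0.556). *Amh*, *Amhr2* and *Inha* were past 1.5-fold in the other direction in both libraries, by 3.49 and 1.74, 2.88 and 2.07, and 3.21 and 1.76 times. Thus 4 of 10 members were past 1.5-fold the same way in both libraries, where 16.2% of genes were. The Sertoli markers described above were given for all stromal-like cells and not split by division. Their part in the 3 that were higher was not tested.

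In myoid-like cells, 3 of 10 members were past 1.5-fold, where 3.92% of genes were, and all 3 are Sertoli transcripts. Without marked doublets 4 of the 9 tested were past it, with *Inhbb* added and all higher in the mutant library. *Amh* was at 4.8 CPM (37 UMIs) in the control and 9.51 CPM (142 UMIs) in the mutant library, *Amhr2* at 3.76 and 6.57 CPM and *Inha* at 17.6 and 32.7 CPM. The Sertoli markers of these cells had a median of 1.61% of the Sertoli level in the control and 3.17% in the mutant library, and *Amh* was at 1.45% and 3.16%, *Inha* at 1.71% and 2.93%. In Leydig-like cells, 7 members had enough UMIs, and 2 were past 1.5-fold in the other direction, *Amh* at 0.467 (26 and 27 UMIs) and *Amhr2* at 0.505 (72 and 81 UMIs), where 14.5% of genes were. Without marked doublets 5 members had enough UMIs and 1 was past it (*Amhr2*). After thinning 3 had enough and 0 were past it. *Amh* and *Amhr2* then had too few UMIs to be tested, so this 0 does not cover them. Their thinned means per Leydig-like cell, control then mutant library, were 0.0909 and 0.0442 for *Amh* and 0.295 and 0.115 for *Amhr2* in Leydig-like cells. The median of the Sertoli markers there went from 11.1% to 6.21% of the Sertoli level. The markers thus moved with *Amh* in each of these classes, and *Inha*, at 309 and 311 CPM, did not move with them in Leydig-like cells.

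In germ-like cells, 1 of 10 members was past 1.5-fold between the libraries, where 18.4% of the 14930 genes tested were. It was *Fst*, with 855 UMIs over 652 control cells and 936 UMIs over 216 *Brca1* vKO cells, a ratio of 4.02 (3.66 to 4.42). *Fst* was found in 296 of 652 control cells (45.4%) and 185 of 216 *Brca1* vKO cells (85.6%), with a median of 0 and 4 UMIs per cell. The cell with the most had 16 UMIs in the control and 22 in the mutant library, which is 1.87% and 2.35% of all *Fst* UMIs. The 66 control and 22 *Brca1* vKO cells with the most held 53.6% and 30.7%, so *Fst* was spread over more of the cells in the mutant library. After thinning, 10.8% and 39.9% of germ-like cells had a *Fst* UMI, beside 2.79% and 2.19% of Sertoli-like cells. *Bmpr1a* was at 1.33 times (1.26 to 1.40) and *Acvr2b* at 0.767 times (0.686 to 0.857) its control level.

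The germ-like cells of the libraries were of different kinds. GFRA1 marks stem cells among the spermatogonia and KIT those that differentiate. Cells with at least 2 UMIs of *Gfra1*, and more of it than of *Kit*, made up 333 of the 652 control and 196 of the 216 *Brca1* vKO cells, while cells of the *Kit* kind, by the reverse rule, were 186 and 8. In the control, *Fst* was at 47.3 CPM in the *Gfra1* kind and 3.8 CPM in the *Kit* kind, a ratio of 0.0803 (0.0566 to 0.111). *Bmpr1a* was also lower in the *Kit* kind, at 129 against 201 CPM, and *Inhba* higher, at 6.24 against 2.56 CPM. These 3 of 10 members were past 1.5-fold in that comparison, where 28.2% of genes were. Both kinds include cells marked as doublets. Without such cells, all control germ-like cells held 28 UMIs of *Inhba*, against 126 with them, and neither kind was recomputed. *Acvr2b* was at 68.1 CPM in the *Kit* and 49.5 CPM in the *Gfra1* kind, a ratio of 1.38 (1.24 to 1.53).

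Within the *Gfra1* kind, *Fst* was at 47.3 CPM (44.0 to 50.8) in the control and 113 CPM (106 to 120) in the mutant library, a ratio of 2.38 (2.16 to 2.63). It was found in 68.8% of these cells in the control and 90.8% in the mutant library. *Inhba* was the other member past 1.5-fold, with 41 and 44 UMIs (2.56 and 5.46 CPM), so 2 of 10 members were past, where 15.9% of genes were. A share near that background is not a result about the members as a group. The *Inhba* UMIs of germ-like cells lay mostly in cells marked as doublets. All germ-like cells held 126 control and 45 *Brca1* vKO UMIs of *Inhba*. Without the marked cells they held 28 and 4 (0.986 and 0.539 CPM), which is lower in the mutant library. The *Gfra1* kind was not recomputed without the marked cells. The summed stromal markers of all germ-like cells went from 310.8 to 386.2 CPM between the libraries. They were at 13252 and 12756 CPM in stromal-like cells, where *Inhba* is highest, and their part in the *Inhba* difference was not tested. *Inha* was at 1.5 times (1.32 to 1.69), just inside the limit, while the summed Sertoli markers of all germ-like cells went from 602 to 740 CPM. *Bmpr1a* was at 1.14 times and *Acvr2b* at 0.853 times. All germ-like cells, the *Kit* kind included, were also grouped by *Gfra1* UMIs after thinning. The control cells with 0, 1, 2 and 3 or more had 13.5, 33.7, 58.1 and 74.4 CPM of *Fst*. The *Brca1* vKO cells of the same groups had 87.3, 125, 102 and 104 CPM. The intervals of both libraries did not overlap in the groups with 0 and 1 *Gfra1* UMI and overlapped in those with 2 and with 3 or more. The cells with 0 *Gfra1* UMIs after thinning were 416 in the control and 55 in the mutant library, and these groups differ in kind, since the control held 186 cells of the *Kit* kind, low in *Fst*, and the mutant library 8. The ratio of *Fst* was 2.11 in cells with at least 5 *Gfra1* UMIs before thinning.

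**Figure D4:**
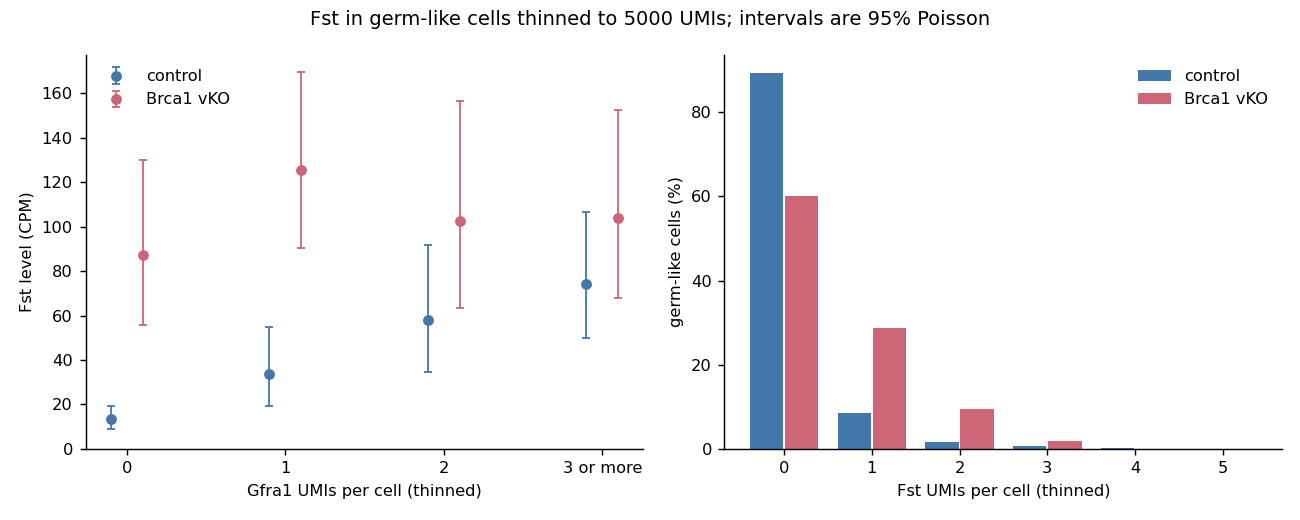
Left, Fst level (y axis, CPM) of germ-like cells thinned to 5000 UMIs, grouped by their Gfra1 UMIs (x axis), with 95% Poisson intervals. Right, share of germ-like cells (y axis, %) by their number of Fst UMIs after thinning (x axis); blue is the control and red the Brca1 vKO library. Without any Gfra1 UMI the Fst level is 13.5 CPM in the control and 87.3 CPM in the Brca1 vKO library, and 10.8% and 39.9% of cells have a Fst UMI.

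**Figure D5:**
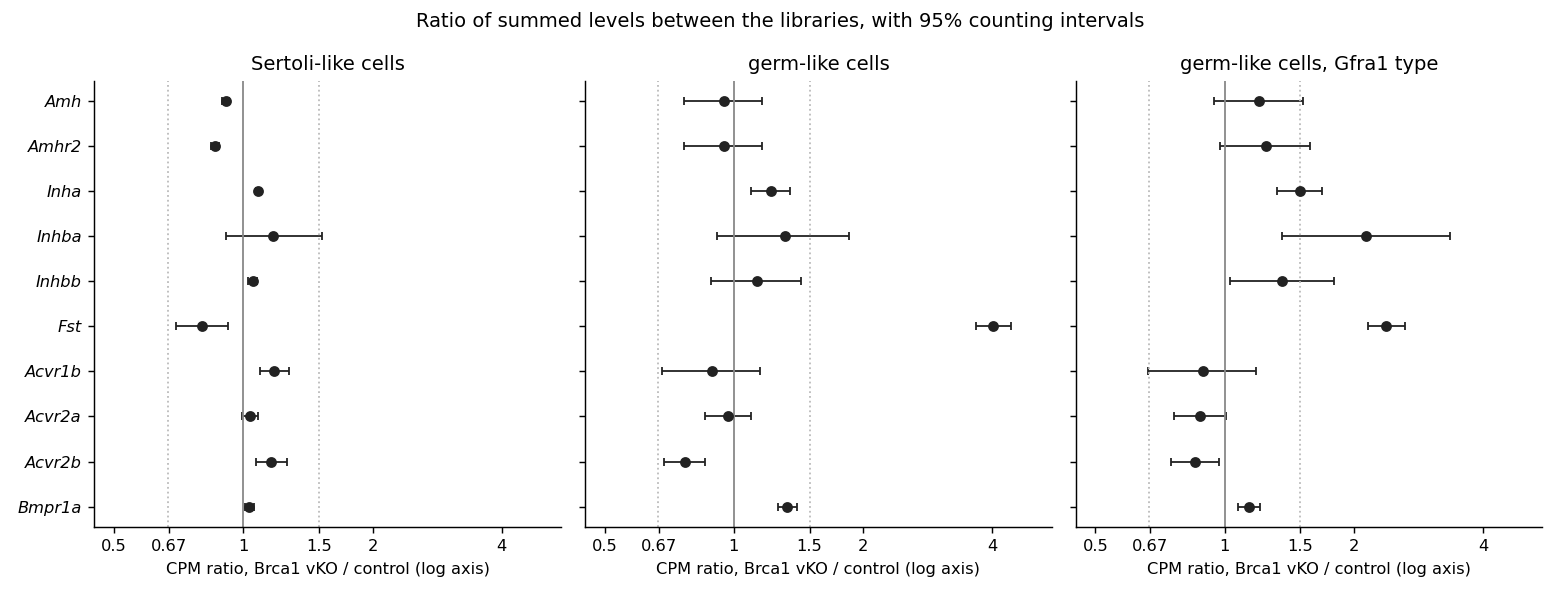
Ratio of levels, Brca1 vKO over control (x axis, log axis), of the 10 genes (y axis) in Sertoli-like, germ-like and Gfra1-type germ-like cells, with 95% counting intervals; the solid line marks equal levels and dotted lines 1.5-fold either way. In Sertoli-like cells all 10 points lie inside the dotted lines, and in germ-like cells Fst lies outside at 4.02.

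Other genes of the pathway, 44 in a list of further ligands, receptors, antagonists and SMADs, gave the setting of the members. In Sertoli-like cells 35 were tested between the libraries and none was past 1.5-fold (0 of 35), where 1.75% of all genes were, so this count is near the background. *Tgfbr3*, the gene for betaglycan, through which inhibin binds activin receptors, was low in the Sertoli-like cells that had the inhibin subunits, at 3.05 and 3.68 CPM. It was at 230 and 226 CPM in Leydig-like, 155 and 160 in myoid-like and 146 and 174 in stromal-like cells. *Fstl3*, a relative of follistatin that also binds activin, was highest in Sertoli-like cells, at 29.3 and 25.1 CPM. *Smad7*, an inhibitory SMAD, was highest there too, at 299 and 336 CPM. *Smad2*, which activin receptors phosphorylate, was at 114 and 112 CPM in Sertoli-like and 154 and 157 CPM in germ-like cells, and *Smad3* was highest in myoid-like cells, at 131 and 128 CPM. Betaglycan was thus low in Sertoli-like cells, where *Inha* was highest, and high in Leydig-like cells, the next class for *Inha*.

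In germ-like cells 12 of the 34 pathway genes tested were past 1.5-fold, 8 higher and 4 lower in the mutant library, where 18.4% of all genes were past it, 1098 higher and 1648 lower. The higher genes included *Tgfb1*, at 17.1 and 48.2 CPM, and its receptor *Tgfbr2*, at 5.18 and 12.99 CPM. Markers of other cells were also higher in these sums, from 48.2 to 86.7 CPM for 8 endothelial markers, from 5 to 16.6 CPM for 8 macrophage markers and from 3.2 to 20.2 CPM for 6 neutrophil markers, and their part in these differences was not tested. *Tgif1*, a corepressor of SMADs, was at 14.96 and 34.9 CPM and *Smad7* at 48.9 and 81.7 CPM. The lower genes included *Smad1*, at 41.4 and 26.6 CPM, and *Bambi*, a decoy receptor, at 26.7 and 14.4 CPM. In the *Gfra1* kind, 6 of 28 pathway genes were higher past 1.5-fold, *Tgfb1* (2.11), *Tgfbr2* (2.52) and *Tgif1* (2.17) among them, and 1 was lower, *Bambi* (0.476), where 15.9% of all genes were past it in either direction.

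The genes whose levels over the 10 sums of class and library were most like those of each member, by Pearson's r of log2 levels among 15562 genes, are given as a description, since the sums of 1 class resemble each other and share a library. *Amh* was most like *Scx* (0.998), *Cst9* (0.997) and *Flvcr2* (0.996), and *Amhr2* most like *Ptpre*, *Masp1* and *Gm35533* (0.994 to 0.997). *Inha* was most like *Gata6* (0.998), *Clu* and *Tnni3*, all 3 with a Leydig level above the stromal one, as for *Inha*. *Inhba* was most like *Gm13052*, *Zim1* and *Npr3* (0.994 to 0.996), and *Inhbb* most like *Kctd14*, *Rarres1* and *Slc26a7* (0.993 to 0.994). For *Fst* the nearest gene, *Nelfb*, had 0.975, with levels from 15.5 to 50.7 CPM, a narrower range than that of *Fst*. The receptors were most like *C130071C03Rik* for *Acvr1b* (0.989), *Vcpip1* for *Acvr2a* (0.991), *Susd1* for *Acvr2b* (0.990) and *Gm50013* for *Bmpr1a* (0.986).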

How the data were processed

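Testes of 1 control and 1 *Brca1* vKO mouse at PD7 were profiled by droplet single-cell RNA-seq. The authors deposited filtered tables of raw UMI counts per gene and cell, made with Cell Ranger 6.0.2 on mm10 and holding 120568700 control and 165062097 *Brca1* vKO UMIs. The precision of each level depends on the UMIs of that gene in the class sum. All further steps were done from these counts. No column belonged to another sample. Barcodes were retained from 750 genes up and up to 10% of UMIs from mitochondrial genes (5077 of 5812 and 8712 of 9456 barcodes). They were clustered on 2000 variable genes, without the members and the other pathway genes, with 20 principal components, Harmony alignment and Leiden clustering at resolution 0.25 (scanpy 1.11.5, leidenalg 0.10.2). This gave 14 clusters, named from fixed markers. Rebuilt names may differ from those of the study. Clusters led by haemoglobin, neutrophil, endothelial, pericyte and B-cell genes, and 1 shallow cluster led by mitotic genes, stayed outside the 5 classes. Doublets were marked with Scrublet and kept in the main values.

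UMIs were summed per library and class. Levels carry exact Poisson intervals, ratios exact conditional intervals and shares Clopper-Pearson intervals, all at 95% and for counting error only. UMIs collapse PCR copies, but cells of 1 mouse are not replicates, so no test was run and mouse, library and genotype cannot be told apart. A gene was past 1.5-fold on the log2(CPM + 1) scale if it had at least 50 UMIs over both sums. This scale understates low genes. Ratios in the text are plain CPM ratios. The genes named are the 10 members, the pathway and maturation lists by counts with examples, and the 3 genes most like each member by Pearson's r over 10 sums. Members and lists were chosen with earlier results of these data known. In simulated counts for the Sertoli comparison, 80% of 40 genes changed 2-fold were past 1.5-fold and 0% of 15161 unchanged genes. These counts held counting error only, so the 0% leaves out the spread between mice and libraries. Alternatives covered cell filters, clustering, doublets, thinning, scaling (edgeR 4.0.16 for TMM), free RNA, pseudocount, gene filter, fold and the cycling limit. The gene positions come from GENCODE on GRCm38 (mm10).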

Additional observations from a re-analysis of the deposited data

Results flagged for a closer look

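*Amh* and *Amhr2* moved in opposite directions between the libraries in myoid-like and Leydig-like cells, and the difference between the classes was not tested. The ratio of *Brca1* vKO to control was 1.98 for *Amh* in myoid-like cells and 0.467 in Leydig-like cells, and for *Amhr2* it was 1.75 and 0.505. All of these rest on at most 142 UMIs per sum. The median Sertoli marker moved from 1.61% to 3.17% of its Sertoli level in myoid-like cells and from 11.1% to 6.21% in Leydig-like cells.

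Members also had UMIs in cells outside the 5 classes. In the neutrophil-like cluster (36 control and 129 *Brca1* vKO cells), *Amh* was at 5.45 CPM in the control and 58.1 CPM in the mutant library, *Amhr2* at 4.09 and 35.5, *Inha* at 25.9 and 159.7, *Inhba* at 5.45 and 35.0 and *Bmpr1a* at 13.6 and 71.7. The leading genes of this cluster also held the macrophage markers *Lyz2* and *C1qa*, and its mix of cells was not compared between the libraries. The median of the Sertoli markers was 2.01% of their Sertoli level there in the control and 12.6% in the mutant library, and Scrublet marked 0% and 7.75% of the cells. In the pericyte-like cluster (47 and 69 cells), *Amh* was at 5.72 and 68.9 CPM and *Inha* at 5.72 and 171.6 CPM, where the Sertoli markers had medians of 1.93% and 15.95%.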

How the results depend on the processing

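No member was past 1.5-fold between libraries in Sertoli-like cells under any of the 21 alternatives run, and no value changed direction. The Sertoli ratio of *Amh* was 0.943 at a mitochondrial limit of 5%, 0.935 with TMM factors, which shift the ratios of that class by 0.04 (log2), and 0.934 in cycling cells. In the cycling split, 1 member was past the limit at 5% mitochondrial UMIs (*Inhba*, higher) and 1 at the lower fold limit (*Amh*, lower). The cycling ratio of *Amh* was 0.724 in the control after thinning, and in the mutant library 0.820 at the 5% limit and 0.809 with cycling called from 1 UMI in thinned cells. The Sertoli share of *Amh* UMIs, control then *Brca1* vKO, was 92.2% and 94.2% at resolution 0.1, 86.0% and 91.0% at the 5% limit, 91.2% and 93.5% with the stricter minimum of genes per cell, 88.8% and 92.9% without Harmony, 89.9% and 92.8% with fewer variable genes, 87.2% and 89.4% from markers without clustering, 94.4% and 96.3% without marked doublets and 90.4% and 92.1% after thinning. The cycling share was 41.5% and 44.6% at the 5% limit, 21.9% and 22.6% after thinning, 44.3% and 47.4% from 1 UMI and 23.1% and 26.4% from 5 UMIs, and in the control 34.1% with the stricter minimum of genes per cell and 34.4% with fewer variable genes. Among alternatives chosen after the data were seen, the germ ratio of *Fst* was 2.38 in *Gfra1* cells, 2.11 from 5 *Gfra1* UMIs and 2.66 without a *Kit* UMI. Without marked doublets, 2 of 10 tested members were past 1.5-fold in stromal-like cells (*Inha* and *Inhbb*, higher). In myoid-like cells 4 of 9 were (with *Inhbb* added, all higher), and in Leydig-like cells 1 of 5 (*Amhr2*, lower). After thinning, 1 of 10 was past it in stromal-like cells (*Fst*, higher), 3 of 7 in myoid-like and 0 of 3 in Leydig-like cells. Thinning left *Amh* and *Amhr2* with too few UMIs to be tested in Leydig-like cells. The cause of these shifts was not tested, apart from the fewer cells or UMIs that some settings leave. Depth limits the members in Leydig-like cells, where 3 of 10 had too few UMIs to be tested even in the main values. No paired analysis was possible because each genotype has 1 library.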

Other observations

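Endothelial-like cells (44 control and 43 *Brca1* vKO cells) had 79.6 and 54.9 CPM of *Amhr2*, which is 25.3% and 20.3% of its Sertoli level, while *Amh* there was at 5.22% and 9.56% and the median of 11 Sertoli markers at 6.62% and 8.42%. The highest of these markers reached 93.9% and 79.1%. *Ecrg4*, among the leading genes of this cluster, also led an unnamed cluster of 17 and 7 cells at resolution 0.5, together with *Rmst* and *Pax8*, which are no endothelial markers, and the part of such cells in the *Amhr2* level was not tested.

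A cluster led by mitotic genes, with medians of 3304 and 2232 UMIs per cell, stayed unnamed and held 169 control and 210 *Brca1* vKO cells. Its *Amh* level was 351 and 325 CPM and its *Inha* level 1189 and 1262 CPM, which is 106% and 108% and 115% and 113% of the Sertoli levels, beside medians of 106% and 106% for the 11 Sertoli markers. *Inhbb* was at 104 and 149 CPM there, 53.3% and 72.7% of its Sertoli level. In a shallow cluster led by haemoglobin genes (154 and 175 cells, medians of 3523.5 and 3075 UMIs), *Amh* was at 454 and 444 CPM and *Inha* at 1508 and 1703 CPM, which is 137% and 147% and 146% and 153% of the Sertoli levels, and *Inhbb* at 129 and 161 CPM, 66.5% and 78.9%. The 11 Sertoli markers had medians of 144% and 142% of their Sertoli levels there. In another shallow cluster led by haemoglobin and germ cell genes (430 and 61 cells), *Fst* was at 7.04 and 49.3 CPM, from 18 and 20 UMIs.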
